A study of Mus musculus with 3 samples.

Results

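Among the meiotic hotspots placed by the CAST allele of PRDM9 there is a group whose H3K4me3 lay mostly, but not entirely, on the CAST homologue. Whole testis was taken from hybrid F1 males whose homologues come from the strains C57BL/6J (B6) and CAST/EiJ (CAST) and which carried a humanized (HUM) and a CAST allele of Prdm9. Per the labels, DMC1 ChIP-seq came from a 10-week-old male and H3K4me3 ChIP-seq from an adult male, with 1 library per assay. The file header credits the raw H3K4me3 data to an earlier study, and the values were tied to the H3K4me3 library only by the name of the mark in the column. That they come from that library is not stated in the sources used here. With 1 library per assay, no difference here has a replicate check and none was tested. Data of the MNase-seq library were not used here. Of 24586 DMC1 sites in the deposited table, 11408 were autosomal, assigned to the CAST allele and off PRDM9-independent H3K4me3 peaks, and 10708 of these had an H3K4me3 B6 share, the part of the H3K4me3 signal on the B6 homologue. The sites described were chosen by that measured share: the 811 with a value from 0.1 to under 0.3 (7.57%) are called CAST-skewed sites.

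PRDM9 is a zinc-finger protein of early meiotic prophase that binds DNA motifs and trimethylates lysine 4 of histone H3 on the nucleosomes around them. Double-strand breaks are then made at some of the bound places, and the resected single strands are coated by the recombinase DMC1, which takes them to a template for repair. In a hybrid, sequence differences in or near a motif can let PRDM9 bind one homologue better than the other; such hotspots are called asymmetric. The signal of each mark is in the authors' units, and the DMC1 to H3K4me3 ratio has no absolute meaning and serves only to compare sites. In whole testis, fewer cells using a site and less signal per cell cannot be told apart.

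No genome sequence was used here, so the motif at each site was not read. Windows of RefSeq sequence (GRCm38.p6) lay within 150 bases of 3 of the 811 site centres, and the 2 shown are the only one that contains a site centre and the one beside one of the strongest sites. The first is the promoter window of the long noncoding RNA gene Gm32312, on the minus strand at chr16:27326592-27326891, with the 21 bases around the site centre (position 27326629, base 263 of the window) in capitals.
Gm32312 promoter window: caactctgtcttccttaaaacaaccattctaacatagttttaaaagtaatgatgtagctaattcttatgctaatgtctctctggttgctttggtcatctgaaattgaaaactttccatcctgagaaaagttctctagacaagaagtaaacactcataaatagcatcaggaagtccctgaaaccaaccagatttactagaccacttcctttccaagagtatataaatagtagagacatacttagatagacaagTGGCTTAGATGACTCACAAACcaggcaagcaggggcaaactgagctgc
The other is the hairpin of the microRNA gene Mir3092, on the minus strand at chr3:27584900-27584995, 35 bases from the centre of the site at position 27584865, with its mature arms in capitals.
Mir3092 hairpin: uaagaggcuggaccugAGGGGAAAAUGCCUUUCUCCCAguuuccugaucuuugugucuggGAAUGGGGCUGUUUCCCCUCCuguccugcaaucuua
The Gm32312 window held 37.7% G and C and 0 CpG dinucleotides, against medians of 52.7% and 7 over 32851 promoter windows in the table. Its site had an H3K4me3 share of 0.122 and a DMC1 share of 0.0200, with DMC1 of 100.2 and H3K4me3 of 12.9. At the site beside Mir3092, which lies inside Fndc3b, the shares were 0.172 and 0.0693, with DMC1 of 678 and H3K4me3 of 19.1. In both places DMC1 was thus more one-sided than H3K4me3.

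That pattern held across the group. The median H3K4me3 share of 0.20, which the choice of sites fixed, stood beside a median DMC1 share of 0.0616 (quartiles 0.0282 and 0.130) at the 791 sites with a DMC1 share; the other 20 had none. As a ratio of signals, the CAST homologue had a median of 4 times the H3K4me3 and 15.2 times the DMC1 of the B6 homologue. DMC1 had the lower share at 679 of the 791 sites, or 85.8% (exact Clopper-Pearson 95% interval 83.2% to 88.2%, which covers counting error only). Among all 10491 CAST-allele sites with both shares, 53.2% had the lower share in DMC1. That background pools sites skewed to either homologue. The value was 82.5% at the 399 CAST-only sites (H3K4me3 share under 0.1) with both shares. At the 1430 sites with an H3K4me3 share over 0.7 and under 0.9 it was 11.6%. The median difference at CAST-skewed sites, DMC1 minus H3K4me3, was -0.11. At the 6640 sites with an H3K4me3 share of 0.3 to 0.7 (called symmetric) this difference was -0.047, so DMC1 had the lower share there too, by less.

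At most of these sites the DMC1 signal lay almost only on the CAST homologue. A DMC1 share under 0.1 was found at 529 of 791, or 66.9% (63.5% to 70.2%), against 10.0% of all CAST-allele sites. A share under 0.3 was found at 721, or 91.2%, against 20.4%. At 41 sites (5.18%, background 0.820%) the B6 homologue was listed at 0. The CAST-only sites were more one-sided still: 94.7% had a DMC1 share under 0.1, 100% one under 0.3 and 8.27% one of 0. Sites with more DMC1 on the B6 than on the CAST homologue, a share over 0.5, numbered 19 (2.40%), where the background was 48.5%. Since the reads behind a share are not known, single sites carry no error estimate.

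**Figure D1:**
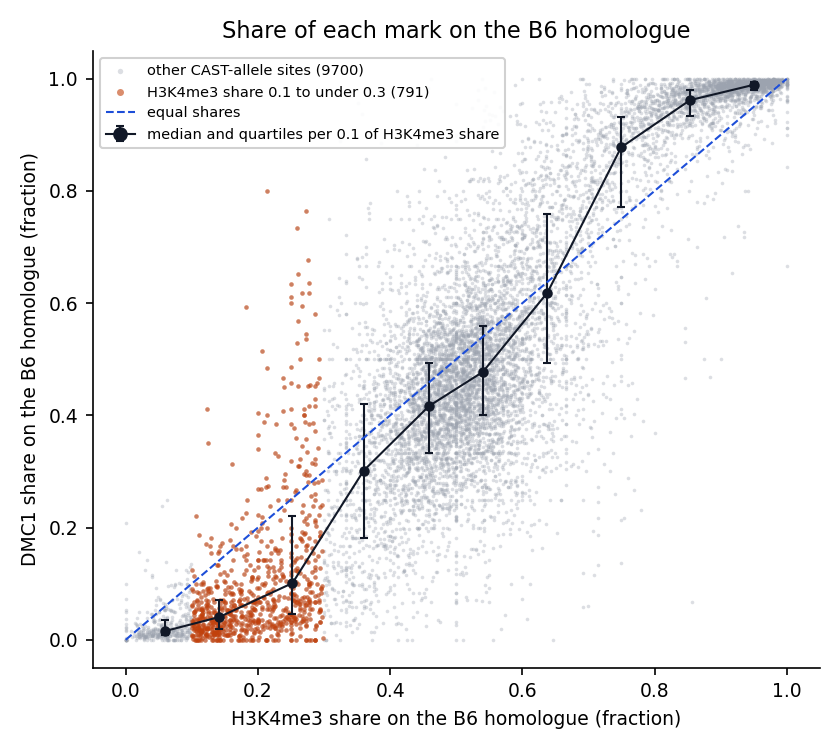
Each point is 1 autosomal CAST-allele site off PRDM9-independent peaks, with the H3K4me3 share on the B6 homologue on the x axis and the DMC1 share on the y axis, both fractions; black points are medians with quartiles per 0.1 of H3K4me3 share. The CAST-skewed sites (orange) lie mostly under the dashed line of equal shares, with a median DMC1 share of 0.0616.

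The DMC1 share differed with the position of a site within the window. The 225 sites with an H3K4me3 share under 0.15 had a median DMC1 share of 0.0323, and none of them was over 0.5. At shares from 0.15 to under 0.2 it was 0.0526 (168 sites), and from 0.2 to under 0.25 it was 0.0769 (167 sites). The 231 sites from 0.25 to under 0.3 had 0.123, with an upper quartile of 0.280, and held 16 of the 19 sites over 0.5. Across the 791 sites the Spearman correlation of the shares was 0.445, a description over sites of the same libraries. Over all CAST-allele sites, in steps of 0.1 of H3K4me3 share from 0 to 1, the median DMC1 shares were 0.0153, 0.0405, 0.101, 0.302, 0.417, 0.478, 0.619, 0.878, 0.962 and 0.989. Neighbouring steps differed most from 0.101 to 0.302 and from 0.619 to 0.878.

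The window has no gap at its ends. Just inside the lower end, at an H3K4me3 share of 0.1, were sites inside Auts2 (chromosome 5, 132464931), Dkk2, a secreted inhibitor of Wnt signalling (chromosome 3, 132094266), and Slc15a5 (chromosome 6, 137990245), taken as the strongest in DMC1 of those tied. Their DMC1 shares were 0.00716, 0.00832 and 0.0909. Just outside it, at 0.0988, 0.0984 and 0.0984, sites inside Cdcp3 and Lrmda and one 1798 kb from Cdh20 had DMC1 shares of 0.0323, 0.0378 and 0.135. Just inside the upper end, at 0.298, 0.298 and 0.297, sites inside Atp11a, a phospholipid flippase, Fbln2, a matrix protein, and Cdkal1 had DMC1 shares of 0.00365, 0.240 and 0.158. At 0.3, just outside, sites inside Kcnmb4 and Ipcef1 and 7.76 kb from Cep55 had 0.142, 0.392 and 0.138. The 6 sites outside fell within the range of the 6 inside or above it. The sites at 0.1 were picked by DMC1 signal, with which the DMC1 share was correlated across the group (Spearman correlation -0.399). The comparison is thus a description of the named sites only.

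CAST-skewed sites were weak hotspots. Their median DMC1 signal was 41.7 (quartiles 23.2 and 102), from 8.63 to 700, and their median H3K4me3 signal was 5.74 (quartiles 3.71 and 9.88), from 0.381 to 49.9. DMC1 reached the median of all sites in the table, 62.1, at 300 of them (37.0%), against 57.5% of all CAST-allele sites. H3K4me3 reached its median of 11.6 at 161 (19.9%), against 52.8%. Only 22 (2.71%) were among the strongest 10% of the table by DMC1, where the background was 13.9%. With 7.11% of the CAST-allele sites they held 3.77% of the summed DMC1 and 3.40% of the summed H3K4me3. The H3K4me3 signal takes a limited set of values. At 648 of the 811 sites (79.9%) it was repeated somewhere else in the table, more often than the 62.8% of all sites.

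Each signal was also divided between the homologues. How H3K4me3 divides follows from the share that chose the sites, so its values per homologue, and the ratios built on them, are a description. Splitting each signal by its share gave a median H3K4me3 of 1.05 on the B6 and 4.65 on the CAST homologue, against 6.997 and 6.82 at symmetric sites. The B6 side was 6.65-fold and the CAST side 1.47-fold lower than at symmetric sites. For DMC1 the medians were 2.55 on the B6 and 37.3 on the CAST homologue, against 33.8 and 40.8. Thus DMC1 on the CAST homologue was only 1.10-fold lower than at symmetric sites, while on the B6 homologue it was 13.3-fold lower. The median ratio of DMC1 to H3K4me3 was 8.52 (quartiles 5.59 and 15.4) on the CAST homologue and 2.72 (1.43 and 4.90) on the B6 homologue, a 3.14-fold difference. At symmetric sites these ratios were 6.58 and 5.30, so the ratio of CAST-skewed sites was 1.29-fold higher on the CAST homologue and 1.95-fold lower on the B6 homologue. The split multiplies each signal by its share and inherits the error of both, which is unknown.

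**Figure D2:**
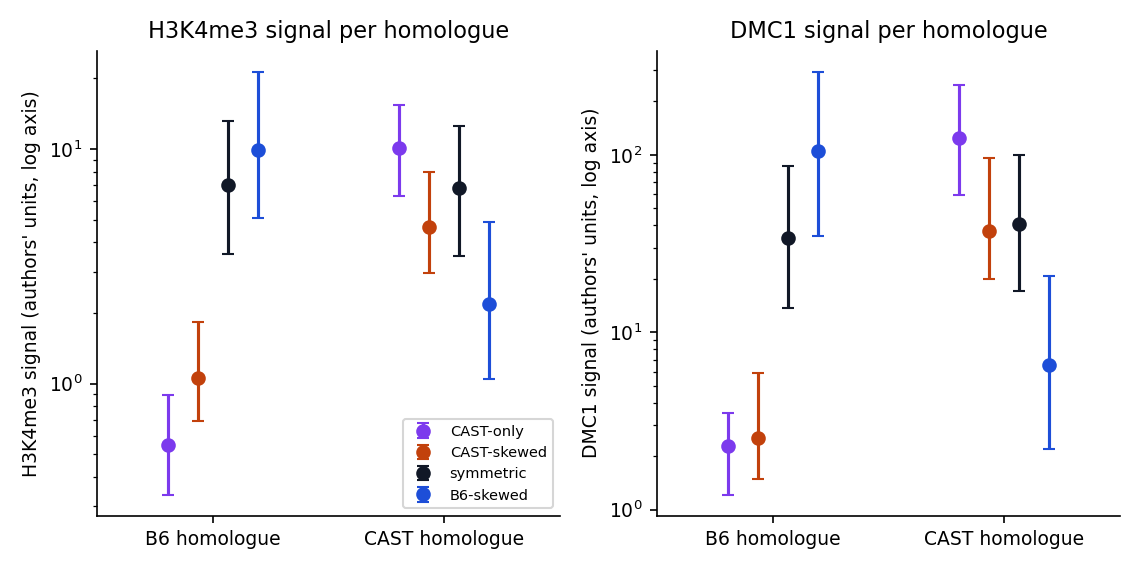
Median (point) and quartiles (bar) of H3K4me3 signal (left) and DMC1 signal (right) on the B6 and the CAST homologue, in the authors' units on log axes, for 4 classes of CAST-allele sites. At CAST-skewed sites (orange) DMC1 on the CAST homologue is close to that of symmetric sites, at 37.3 against 40.8, and on the B6 homologue it is 2.55 against 33.8.

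Over both homologues, CAST-skewed sites had more DMC1 for their H3K4me3 than symmetric sites and less than sites marked on the CAST homologue only. The median log2 ratio was 2.93 (quartiles 2.35 and 3.72), against 2.62 at the 6799 symmetric sites and 3.67 at the 403 CAST-only sites, whose H3K4me3 share was under 0.1. The difference from symmetric sites was 0.31, or 1.24-fold, with the same direction on 19 of 19 autosomes, and 0.38 (1.30-fold) within bins of equal H3K4me3. The difference from CAST-only sites was -0.74, or 1.67-fold lower, again on 19 of 19 autosomes. By autosome it ran from -1.28 on chromosome 14 to only -0.04 on chromosome 11. The quartiles of the 3 classes overlapped. When sites with DMC1 under the lower quartile of the table were left out, the difference from symmetric sites was 0.57. This cut selects on DMC1, which is itself part of the ratio, and left 568 of the 811 CAST-skewed sites. On single autosomes the difference from symmetric sites ranged from 0.04 on chromosome 12 to 1.004 on chromosome 11. Without chromosome 11 it was 0.29.

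**Figure D3:**
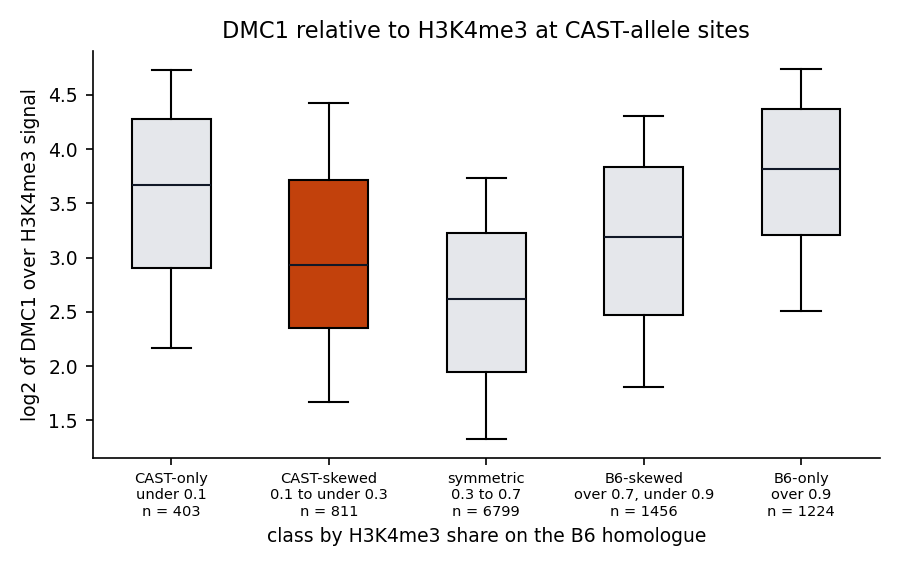
Log2 of DMC1 over H3K4me3 signal in 5 classes of CAST-allele sites by H3K4me3 share; boxes show quartiles and median, and whiskers the 10th and 90th percentiles. The CAST-skewed class (orange, median 2.93) lies between the symmetric class at 2.62 and the CAST-only class at 3.67.

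The opposite class, with an H3K4me3 share over 0.7 and under 0.9, was larger and stronger. It held 1456 sites, 1.80 for each CAST-skewed site, and outnumbered them on 19 of 19 autosomes. Its median DMC1 of 111 was 2.67-fold and its median H3K4me3 of 12.0 was 2.09-fold that of CAST-skewed sites. The log2 ratio of CAST-skewed sites was lower by 0.26 (a difference of -0.26, on 17 of 19 autosomes). By autosome the difference ran from -0.70 on chromosome 2 to 0.51 on chromosome 11. Within bins of equal H3K4me3 the log2 ratio was lower by 0.09 (-0.09), and without the weakest DMC1 sites by 0.02 (-0.02). That last cut selects on DMC1, which is itself part of the ratio. In the shares, the opposite class was close to a mirror image: a median H3K4me3 share of 0.814 stood beside a DMC1 share of 0.940, and the difference between the marks was 0.11. DMC1 was the more one-sided mark at 1264 of its 1430 sites with both shares (88.4%).

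How one-sided DMC1 was differed with the strength of the site. With CAST-skewed sites in 4 equal groups by DMC1, from weakest to strongest, the median DMC1 share was 0.118, 0.0667, 0.0449 and 0.0278, while the median H3K4me3 share was 0.219, 0.20, 0.20 and 0.166. In the strongest group, with DMC1 from 103 to 700, 93.9% of sites had the lower share in DMC1 and none had a share over 0.5. In the weakest group, from 8.63 to 23.2, it was 76.3%, and 7 sites were over 0.5. In 4 equal groups by H3K4me3 the DMC1 share varied less, at 0.0818, 0.0625, 0.0515 and 0.0525. The Spearman correlation of the DMC1 share was -0.399 with DMC1 signal and -0.122 with H3K4me3 signal over the 791 sites. DMC1 share and DMC1 signal come from the same library, and the part of read depth in this relation was not tested.

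**Figure D4:**
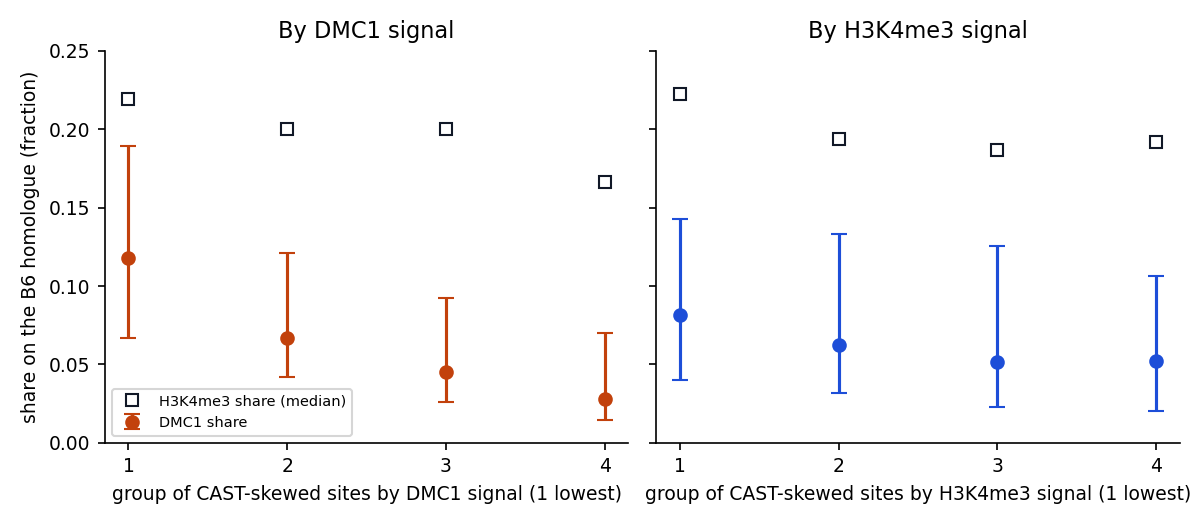
DMC1 share on the B6 homologue (median and quartiles, filled) and median H3K4me3 share (open squares) for CAST-skewed sites in 4 equal groups by DMC1 signal (left) and by H3K4me3 signal (right). The DMC1 share is 0.118 in the weakest and 0.0278 in the strongest DMC1 group, and it lies under the H3K4me3 share in all 8 groups.

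The 8 strongest CAST-skewed sites had DMC1 of 528 to 700 and are the upper end of the group, whose median DMC1 was 41.7. The strongest lay inside Dcun1d4, a gene of cullin neddylation (chromosome 5, 73520598; DMC1 700, H3K4me3 28.0), with an H3K4me3 share of 0.225 and a DMC1 share of 0.113. The next was between genes, 58.2 kb from Tcim (chromosome 8, 24379008; DMC1 696), with H3K4me3 of only 4.77 and shares of 0.133 and 0.0103. It was followed by the site inside Fndc3b beside Mir3092 and by a site inside Snx25, a sorting nexin (chromosome 8, 46146333; DMC1 673), with shares of 0.201 and 0.0918. Inside Mylk3, a myosin light chain kinase of the heart (chromosome 8, 85372941; DMC1 592), they were 0.155 and 0.00933.

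The site inside Osbpl3, which encodes an oxysterol-binding protein (chromosome 6, 50394055; DMC1 545), was the exception. Its H3K4me3 share of 0.245 and its DMC1 share of 0.2497 were nearly equal, with 136 of its DMC1 signal on the B6 and 409 on the CAST homologue. The last 2 lay 1.96 kb from Fam184a (chromosome 10, 53753239; DMC1 539) and inside Stxbp4, a syntaxin-binding protein gene (chromosome 11, 90631175; DMC1 528), with H3K4me3 shares of 0.123 and 0.115 and DMC1 shares of 0.0100 and 0.0162. Of these 8 sites, 7 were thus more one-sided in DMC1 than in H3K4me3.

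A few sites of at least median DMC1 went the other way. The highest DMC1 share among them was 0.652, at a site 89.0 kb from Dyrk2, a protein kinase gene (chromosome 10, 118978286; DMC1 51.9, H3K4me3 25.2), where the H3K4me3 share was 0.261. A site 5.56 kb from Tfap2b, a transcription factor gene (chromosome 1, 19244405), had 0.60. Others lay inside Lrrc9 (chromosome 12, 72482225) and Agmo, an enzyme of ether lipid breakdown (chromosome 12, 37436075), with 0.595 and 0.593. These 4 sites had DMC1 of 41.8 to 69.1, and only the one in Agmo was above the median of the whole table in DMC1. H3K4me3 at the sites near Dyrk2 and in Lrrc9 (13.1) was above the median of the table.

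At the opposite end were sites listed at 0 DMC1 on the B6 homologue. The 5 strongest lay inside Hecw1, a ubiquitin ligase (chromosome 13, 14238091; DMC1 197), inside Axin1, a scaffold of Wnt signalling (chromosome 17, 26181497; DMC1 191), and 4.97 kb from Zfp87 (chromosome 13, 67531198; DMC1 149). The remaining sites were inside Ptgir, the prostacyclin receptor gene (chromosome 7, 16910213; DMC1 107), and Scaf4 (chromosome 16, 90235619; DMC1 91.0). Their H3K4me3 shares were 0.190, 0.106, 0.212, 0.133 and 0.258, which are at least 0.1 by the choice of sites.

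DMC1 per H3K4me3 spanned a wide range within the group. The highest ratio, 146, was at the site 58.2 kb from Tcim, where H3K4me3 of 4.77 was under the group's median. Among sites of at least median H3K4me3, the highest ratios were 59.3 at a site 67.0 kb from Hunk, a kinase gene (chromosome 16, 90566526), 56.9 at one 785 kb from Adgrl4, an adhesion receptor of endothelium (chromosome 3, 150652663), 44.5 inside Asph, a hydroxylase gene (chromosome 4, 9514715; no DMC1 share), and 41.4 at one 90.4 kb from Sall3, a zinc-finger transcription factor (chromosome 18, 81077436). Their H3K4me3 was 6.11 to 7.45, near the group's median. The lowest ratios were 0.661 at a site 6.13 kb from Akr1b8, an aldo-keto reductase gene (chromosome 6, 34374593), 0.978 at one 12.8 kb from Gask1b (chromosome 3, 79871677), 1.02 at one 24.6 kb from Actr3b, an actin-related gene (chromosome 5, 25875296), and 1.03 inside Pou2f1, a transcription factor (chromosome 1, 165927335). There H3K4me3 was 13.5 to 39.2 with DMC1 of only 14.0 to 34.1. The Spearman correlation of DMC1 with H3K4me3 was 0.661 over the 811 sites and 0.807 over the symmetric sites. It was also lower, at 0.642, over the 403 CAST-only sites, and 0.638 over the 1120 humanized-allele sites in the same window. Over the 1456 sites with an H3K4me3 share over 0.7 and under 0.9 it was 0.821.

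CAST-skewed sites were found on every autosome. They made up 6.34% of the CAST-allele sites with a share on chromosomes 1 and 15 and 9.06% on chromosome 6, the lowest and highest values, with 22 to 61 sites per chromosome. The median DMC1 share was under the median H3K4me3 share on 19 of 19 autosomes, from 0.0405 on chromosome 19 to 0.0816 on chromosome 6. The percentage of sites with the lower share in DMC1 ranged from 75.7% on chromosome 16 to 95.5% on chromosome 9.

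**Figure D5:**
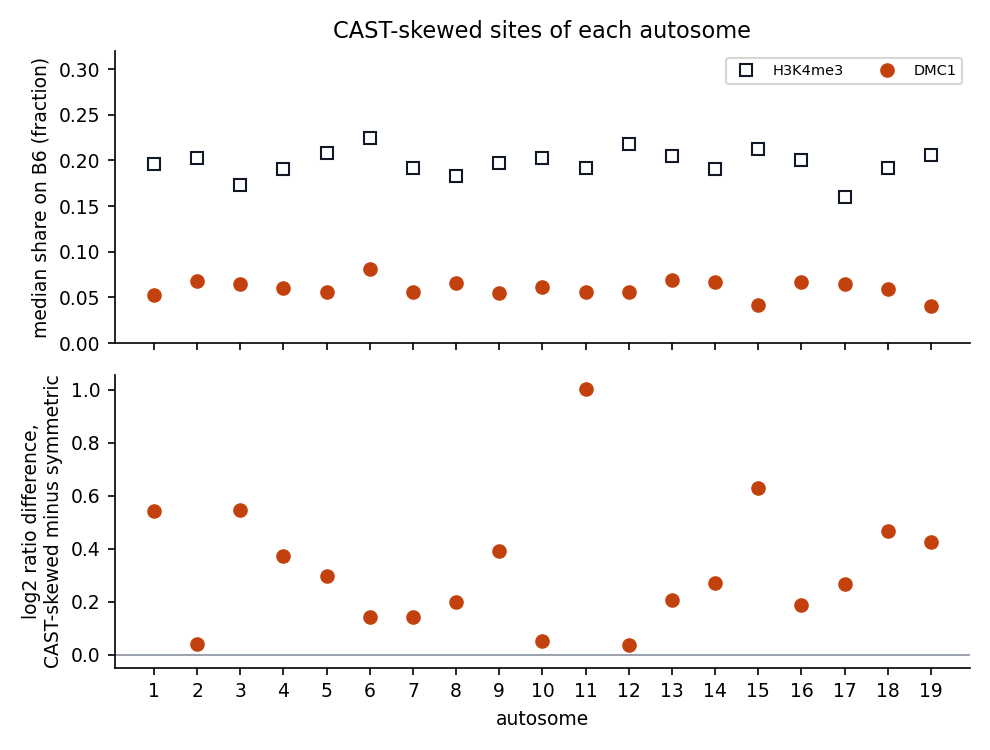
Top, median H3K4me3 share (open squares) and DMC1 share (filled) of CAST-skewed sites on each autosome; bottom, difference of the median log2 ratio of DMC1 to H3K4me3, CAST-skewed minus symmetric sites. The DMC1 share lies under the H3K4me3 share and the difference above 0 on 19 of 19 autosomes, with chromosome 11 highest at 1.004.

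A smaller share of CAST-skewed sites than of all CAST-allele sites lay inside protein-coding genes. They numbered 367, or 45.3% (exact 95% interval 41.8% to 48.8%), against 52.1% of all CAST-allele sites. The value was 53.5% for symmetric sites, 50.4% for CAST-only sites (45.4% to 55.4%) and 48.7% for the opposite class. The intervals of CAST-skewed and CAST-only sites overlapped. With flanks of 5 kb the value for CAST-skewed sites was 51.5%, against 58.6% of symmetric sites. Sites inside and outside genes had nearly the same DMC1 share, at medians of 0.0620 and 0.0616. The 367 sites fell in 356 genes, of which 15 held 2 or more and none held 3 (overlapping genes were each counted). The closest pair lay 1317 bases apart, 199 kb from Hs3st4, a heparan sulfate sulfotransferase gene (chromosome 7, 124597941 and 124599258), with H3K4me3 shares of 0.148 and 0.25 and DMC1 shares of 0.120 and 0.

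In or within 5 kb of the 62 listed genes, 1 of 16 CAST-allele sites with a share was CAST-skewed, where 7.57% of all such sites were. It lay inside Msh4, which stabilises crossover intermediates (chromosome 3, 153896072), with DMC1 of 15.8, H3K4me3 of 2.75 and shares of 0.207 and 0.0541. The 31 genes of break formation and repair, Msh4 among them, held 12 of the 16 sites. None lay at the 15 axis and synaptonemal complex genes, which held 3 such sites, at the 8 spermatid genes, which held 1, or at the 8 Sertoli and Leydig cell genes, which held 0.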

How the data were processed

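The deposited table lists DMC1 peaks in mm10. The aligner was BWA, per the submitters' processing notes, in version 0.7.15 for the H3K4me3 library (for DMC1, not given in the sources used here). Per the file headers, the DMC1 signal and the H3K4me3 signal are intensities from the authors' peak callers, and the share of each mark is the fraction of its signal on the B6 homologue. The headers credit the raw H3K4me3 data to an earlier study. Scaling to depth and the reads behind a value were unknown. Per the labels, the libraries were 1 per assay.

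Sites were selected by PRDM9 class, chromosome, peak overlap and H3K4me3 share, and summarised by medians, quartiles and counts. Log2 values had no pseudocount, since no signal was 0. Matched differences used 20 equal bins of H3K4me3 with at least 5 sites of both classes. No p-value was computed. Genes were the 21631 protein-coding genes of RefSeq GRCm38.p6, the build of mm10. All 63 listed symbols matched, to 62 genes.

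The sites named were the 8 highest in DMC1, the extremes of ratio and of DMC1 share among sites of at least median H3K4me3 or DMC1, those next to the limits of the class, the closest pair and any at listed genes. One site that this rule names is not reported here. The class and the lists were chosen with earlier results of these data known. The functions for the log2 ratio differences were tested on simulated log2 ratios, with the measured H3K4me3 signals and shares kept. The share comparisons and the gene overlaps were not tested in this way. Python 3.11.15, numpy 2.4.6, pandas 2.3.3 and scipy 1.17.1 were used.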

Additional observations from a re-analysis of the deposited data

How the results depend on the processing

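Over 13 alternative settings neither the difference between the shares nor any log2 ratio difference turned direction. Single autosomes entered only as their median over 19. Taken alone, the log2 ratio difference from the opposite class was below 0 on 17 of 19 and reached 0.51 on chromosome 11. The median share and the percentages have no sign, so direction was not scored for them. Of 66 values, 48 stayed within the interval of the main value. These were 95% intervals from binomial or order-statistic bounds over sites. For the log2 ratio differences the opposite ends of the intervals of both classes were combined, which gives a range wider than 95%. With a window of 0.15 to under 0.25 the median difference between the shares was -0.127, and DMC1 had the lower share at 88.4% of sites. Without DMC1 under the lower quartile the median DMC1 share was 0.0460, the lower share was in DMC1 at 89.0% of sites and a DMC1 share under 0.1 was found at 77.5%. The log2 ratio then differed by 0.57 from symmetric, by -0.43 from CAST-only and by -0.0165 from B6-skewed sites. B6-skewed sites are those with an H3K4me3 share over 0.7 and under 0.9. A cut on DMC1 acts on the ratio itself, so these values are not an independent check. As means, the DMC1 share was 0.108, the difference between the shares -0.0901, and the log2 ratio differences 0.45, -0.52 and -0.11 in the same order. A pseudocount gave -0.57 against CAST-only sites, and bins of equal H3K4me3 gave -0.0854 against B6-skewed sites. With 5 kb flanks 51.5% of sites were at genes. Chosen after seeing the data were 3 settings: without H3K4me3 under the lower quartile the median DMC1 share was 0.0515 and 72.1% of sites had one under 0.1, while leaving out repeated H3K4me3 values kept all 8 values within their intervals. Chromosome 11 was left out of the 3 log2 ratio differences alone, which stayed within theirs. Depth per site is unknown, which limits each single share.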

Other observations

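Sites of the humanized allele in the same window of H3K4me3 share gave similar values. At the 1120 such sites the median DMC1 was 46.3 and the median H3K4me3 7.39, against 41.7 and 5.74 at the 811 CAST-skewed sites. Their median DMC1 share was 0.0526, against 0.0616, and DMC1 had the lower share at 89.5% of 1091 sites (87.5% to 91.2%), against 85.8%. Sites of the humanized allele were more often inside protein-coding genes, at 55.9% (52.9% to 58.8%) against 45.3%. None of these differences between the alleles was tested.

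The hotspots next to CAST-skewed sites were also examined. The nearest other DMC1 site lay at a median of 30.1 kb. It was of the CAST class at 438 of 811 sites (54.0%) and of the HUM class at 290 (35.8%). Over all CAST-allele sites these values were nearly the same, at 29.9 kb, 54.0% and 37.6%. Another site lay within 10 kb at 194 (23.9%, interval 21.0% to 27.0%), against 21.0% of all CAST-allele sites. Where the nearest site was of the CAST class and had an H3K4me3 share, its share was under 0.3 at 64 of 415 (15.4%), against 10.9% of 5773 for all CAST-allele sites, and its median was 0.523, against 0.533. The other 396 nearest sites were not assigned to the CAST allele or had no share.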
